A study of Mus musculus with 6 samples.

Results

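The 5 genes Rhox1, Rhox5, Rhox8, Rhox10 and Rhox13 of the Rhox (reproductive homeobox) cluster were followed in testes labelled as a germ-cell conditional knockout of Dcaf2. They were taken by Ensembl identifier and fell into 2 sets by the cell type in which each is known to be used. Rhox8 (ENSMUSG00000064137) and Rhox5 (ENSMUSG00000095180) formed the Sertoli-type set, and Rhox13 (ENSMUSG00000050197), Rhox10 (ENSMUSG00000053909) and Rhox1 (ENSMUSG00000071773) the germ-type set. These 5 were among 34 Rhox genes in a table of 22274 genes. The symbols printed in the deposited table could not be used to find them: Rhox8 stood there as ALX4, Rhox10 as RHOXF1 and Rhox1 as a dash, and the name Rhox13 stood on 3 rows, of which 1 is Rhox13 and the others are Rhox7a and Rhox7b.

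Messenger RNA had been sequenced from whole mouse testes labelled day 9. The conditional knockout (cKO) group, with 3 libraries, came from mice in which Dcaf2 fl/fl was combined with Stra8-Cre, a Cre recombinase driven by the promoter of a gene that spermatogonia switch on as they prepare to differentiate. The control group, also with 3 libraries, is labelled only as control, so its alleles are not known here, nor whether its mice carried the Cre or the floxed gene. DCAF2, encoded by Dtl, is the substrate receptor of a CRL4 ubiquitin ligase, and the study asked whether spermatogenesis needs it. The labels do not say whether the numbered libraries are separate animals, and p-values therefore reflect variation among libraries that may be partly technical. The Cre was chosen to act in germ cells while whole testes were sequenced, so reads from Sertoli, Leydig and all other somatic cells are counted together with those of germ cells, and Cre activity was not measured.

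The Rhox genes encode homeodomain transcription factors and lie side by side on the mouse X chromosome. Several are switched on in turn as the testis matures after birth, some in Sertoli cells, the somatic cells that nurse the germ line, and others in germ cells. Rhox5 is the founding member and an androgen-responsive gene of Sertoli cells, Rhox8 is another Sertoli gene that responds to androgen, Rhox10 acts in spermatogonia as they form the stem cell pool, and Rhox13 is a germ-cell gene.

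The start regions of the germ-type genes are shown because all 3 genes were lower in cKO libraries, with that of Rhox5 as the Sertoli-type counterpart. Each is a window of 300 bases from RefSeq (GRCm38.p6), from 250 bases before to 50 bases after the annotated start, in the direction of transcription. A window was matched for 4 of the 5 genes. That of Rhox13 lies at chrX:38120590-38120889 (plus strand), that of Rhox10 at chrX:38066225-38066524 (plus strand), that of Rhox1 at chrX:37222209-37222508 (minus strand) and that of Rhox5 at chrX:37754358-37754657 (plus strand). Capitals mark matches to 4 motifs that were searched on both strands: AGAACA, the letters of an androgen receptor half-site (TGTTCT when read on the other strand), the E-box CACGTG, the CCAAT box (read on the other strand as ATTGG) and the TATAAA box (read on the other strand as TTTATA).
Rhox13: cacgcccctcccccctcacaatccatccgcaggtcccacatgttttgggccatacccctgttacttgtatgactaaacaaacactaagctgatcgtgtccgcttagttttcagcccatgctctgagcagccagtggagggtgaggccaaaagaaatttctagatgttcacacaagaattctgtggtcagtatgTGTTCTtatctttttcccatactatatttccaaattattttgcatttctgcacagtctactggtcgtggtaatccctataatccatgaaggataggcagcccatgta
Rhox10: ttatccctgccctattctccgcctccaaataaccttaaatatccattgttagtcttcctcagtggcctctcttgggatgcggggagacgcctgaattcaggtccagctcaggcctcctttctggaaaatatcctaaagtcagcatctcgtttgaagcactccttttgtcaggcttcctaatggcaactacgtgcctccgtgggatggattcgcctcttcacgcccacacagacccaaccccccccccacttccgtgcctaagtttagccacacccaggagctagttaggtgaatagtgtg
Rhox1: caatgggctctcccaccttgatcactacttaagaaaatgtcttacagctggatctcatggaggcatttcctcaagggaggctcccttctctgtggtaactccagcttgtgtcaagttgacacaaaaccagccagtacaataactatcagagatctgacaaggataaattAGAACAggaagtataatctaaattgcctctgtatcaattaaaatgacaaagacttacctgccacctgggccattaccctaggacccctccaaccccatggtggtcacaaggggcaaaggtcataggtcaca
Rhox5: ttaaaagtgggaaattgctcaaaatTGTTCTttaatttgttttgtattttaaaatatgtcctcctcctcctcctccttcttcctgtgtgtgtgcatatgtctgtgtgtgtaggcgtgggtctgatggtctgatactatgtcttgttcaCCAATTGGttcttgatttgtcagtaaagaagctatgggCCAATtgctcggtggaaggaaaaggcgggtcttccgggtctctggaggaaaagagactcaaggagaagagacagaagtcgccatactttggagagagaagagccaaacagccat

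The AGAACA letters occurred 1 time each in the Rhox13, Rhox1 and Rhox5 windows and not in the Rhox10 window, and 19% of 32851 mouse promoter windows of the same length held at least 1 match. Rhox5 was the single gene of the 4 with CCAAT letters, in 3 matches of which an inverted pair overlaps, against 37.4% of all windows. Neither the E-box, which 7.15% of windows held, nor TATAAA, which 13.6% held, was found in these 4 windows. CpG dinucleotides numbered 5 in Rhox13, 9 in Rhox10, 0 in Rhox1 and 5 in Rhox5, beside a median of 7 over all windows. These matches describe letters, and no binding or methylation was measured.

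Library totals ran from 15407007 to 18372964 counts, and 14424 genes passed the filter on low counts, all 5 Rhox genes described here among them. Dtl, the targeted gene, stood at 41.7, 43.8 and 51.5 CPM, counts scaled to library size, in cKO libraries and 42.6, 50.3 and 77.4 CPM in control libraries, a log2 fold change of -0.31 (SE 0.202) with an adjusted p of 0.281 in edgeR's quasi-likelihood test. The groups overlapped. Leaving out control library 1 gave a log2 fold change of -0.51, which passed (adjusted p of 0.0314), whereas leaving out control library 3 gave -0.02 (adjusted p of 0.922). The counts do not tell which exons of Dtl were read or in which cells, so they do not check the deletion. Of 14424 genes tested, 25% differed between the groups at an adjusted p under 0.05, with 11.1% higher and 13.9% lower in cKO libraries. Higher genes made up 44.3% of these calls, against 31.4% with total-count scaling and 28.1% in limma on log2(FPKM + 0.1). The groups did not overlap for 44.6% of the tested genes, 22.5% being higher and 22.1% lower. Control library 1 stood apart from the other controls: its summed Sertoli list reached 10116 CPM against 7814 and 7429 CPM in the other 2, and its Leydig list 1799 CPM against 1070 and 1043 CPM. Its pan-germ-cell list was the lowest of the controls, at 2012 CPM against 2836 and 2727 CPM.

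The germ-type genes all fell in cKO testes when libraries were scaled over all genes, and the Sertoli-type genes did not pass in either direction. Relative to germ-cell transcripts, Rhox13 alone of the germ-type genes still passed. There Rhox10 stood at -0.05 and Rhox1, at 0.21, changed sign. Scaled over all genes, Rhox13 was 8.74-fold lower, Rhox10 2.90-fold lower and Rhox1 2.43-fold lower. Rhox8 and Rhox5 had log2 fold changes of 0.18 and 0.10. So 3 of 5 members were lower in cKO libraries, where 13.9% of all tested genes were lower, and 0 of 5 were higher, where 11.1% were. In all 3 germ-type genes each cKO library lay below each control library, an arrangement found in 22.1% of tested genes.

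**Figure D1:**
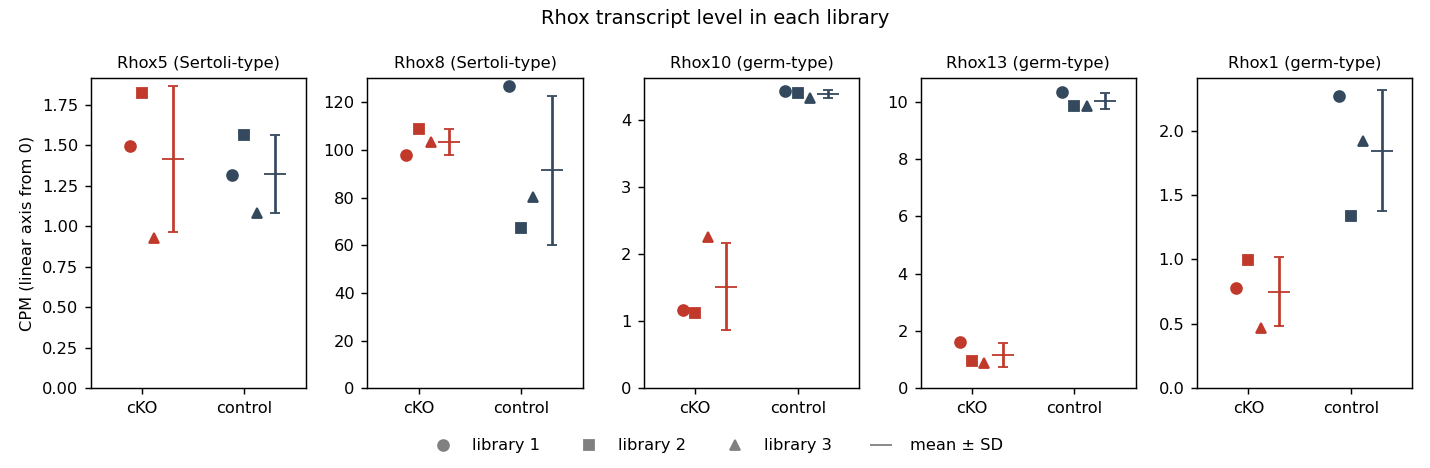
CPM (linear axis from 0) of the 5 genes in each of 3 cKO libraries (red) and 3 control libraries (dark), with the mean and SD beside the points. Rhox13 lies between 0.863 and 1.63 CPM in cKO libraries and between 9.86 and 10.3 CPM in control libraries, whereas the groups overlap for Rhox8 and Rhox5.

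Rhox13 changed most. It was counted 25, 16 and 13 times in cKO libraries and 196, 177 and 164 times in control libraries. Scaled to library size, these counts are 1.63, 0.939 and 0.863 CPM in cKO libraries and 10.3, 9.87 and 9.86 CPM in control libraries. The control libraries lay close together, and the highest cKO library was far below the lowest of them. The log2 fold change was -3.13 (SE 0.249, 95% interval -3.69 to -2.57), with an adjusted p of 0.000219 in edgeR's quasi-likelihood test with Benjamini-Hochberg adjustment over all tested genes. Leaving out any 1 of the 6 libraries kept it between -3.46 and -2.97, past the threshold each time. Since its cKO counts are low, the size of the fold is less certain than its direction.

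Rhox10, needed in mouse for spermatogonial stem cells to form in full number, fell less. Counts were 18, 19 and 34 in cKO libraries and 84, 79 and 72 in control libraries, or 1.17, 1.12 and 2.26 CPM in cKO libraries and 4.43, 4.40 and 4.33 CPM in control libraries. The third cKO library stood above the other 2 cKO libraries, while the controls were almost level. The log2 fold change was -1.54 (SE 0.298, 95% interval -2.21 to -0.87) with an adjusted p of 0.00773 in edgeR's quasi-likelihood test, and it stayed past the threshold whichever library was left out.

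Rhox1, the first gene of the cluster in RefSeq order, was the lowest of the germ-type genes. It had 12, 17 and 7 counts in cKO libraries and 43, 24 and 32 counts in control libraries, or 0.780, 0.998 and 0.465 CPM in cKO libraries and 2.27, 1.34 and 1.92 CPM in control libraries. The groups were apart, but the highest cKO library and the lowest control library differed by only 7 counts. Its log2 fold change was -1.28 (SE 0.367, 95% interval -2.11 to -0.45) with an adjusted p of 0.0335 in edgeR's quasi-likelihood test. This call was close to the threshold: with 1 library left out, the log2 fold change lay between -1.55 and -1.04, the adjusted p between 0.0222 and 0.105, and only the fit without control library 2 passed.

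Rhox8, the androgen-responsive Sertoli gene, was by far the most abundant Rhox transcript. Its counts were 1504, 1852 and 1557 in cKO libraries and 2401, 1206 and 1336 in control libraries, or 97.8, 109 and 103 CPM in cKO libraries and 127, 67.2 and 80.3 CPM in control libraries. The cKO libraries fell within the range of the controls, with control library 1 the highest of all 6. The log2 fold change was 0.18 (SE 0.203, 95% interval -0.28 to 0.64) with an adjusted p of 0.558 in edgeR's quasi-likelihood test. Its counts were high, and the spread among controls, at 67.2 to 127 CPM, set the width of the interval. Without control library 1 the log2 fold change was 0.46 with an adjusted p of 0.00453, and without control library 2 it was -0.01 with an adjusted p of 0.968.

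Rhox5, the Sertoli gene from which the family was first described, was scarce at this age in these libraries. It was counted 23, 31 and 14 times in cKO libraries and 25, 28 and 18 times in control libraries. Levels of 1.50, 1.82 and 0.930 CPM in cKO libraries and 1.32, 1.56 and 1.08 CPM in control libraries overlapped fully. The log2 fold change of 0.10 (SE 0.333) had an adjusted p of 0.841 in edgeR's quasi-likelihood test. Its 95% interval ran from -0.65 to 0.86, and a change within it was not detectable at this depth.

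Levels of different genes were set side by side in the deposited FPKM, which is scaled to transcript length. In control libraries Rhox8 came first with 77.8 ± 27.4 FPKM (SD, n = 3), followed by Rhox13 with 11.7 ± 0.445, Rhox10 with 5.88 ± 0.101, Rhox1 with 2.14 ± 0.573 and Rhox5 with 1.51 ± 0.25 FPKM. Rhox1 and Rhox5 overlapped there, at 1.52 to 2.65 and 1.25 to 1.75 FPKM, and the others were separate from their neighbours. The cKO libraries kept Rhox8 first with 83.8 ± 3.84 FPKM, and then had Rhox10 with 1.94 ± 0.824, Rhox5 with 1.55 ± 0.488, Rhox13 with 1.28 ± 0.481 and Rhox1 with 0.827 ± 0.297 FPKM. There Rhox10, Rhox5 and Rhox13 overlapped one another, and both Rhox5 and Rhox13 overlapped Rhox1. Rhox13 thus stood above Rhox5 in control testes and overlapped it in cKO testes.

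Germ-type genes made up 3.30%, 2.58% and 3.17% of all Rhox counts in the cKO libraries and 10.8%, 16.3% and 14.8% in the control libraries. Rhox8 alone held 90.3%, 91.8% and 91.3% of Rhox counts in the cKO libraries and 80.0%, 70.1% and 73.7% in the control libraries. The ratio of Rhox13 to Rhox10 counts was 1.39, 0.842 and 0.382 in cKO libraries and 2.33, 2.24 and 2.28 in control libraries, so the 2 genes held a nearly fixed ratio in controls and a lower and variable one in cKO testes. These shares and the ratio were not tested.

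General germ-cell transcripts also fell. A list of 22 tested pan-germ-cell genes had 22 lower and 0 higher, where 13.9% of all tested genes were lower and 11.1% higher. Log2 fold changes in the list ran from -2.24 to -1.20, with a median of -1.46, beside 0.03 over all tested genes. Dazl, a germ-cell RNA-binding protein, averaged 165 ± 20.0 CPM in cKO libraries and 510 ± 53.9 CPM in control libraries (SD, n = 3 each). The other named members were Tex13b, whose log2 fold change was -1.84, the germ-cell surface glycoprotein gene Tex101 at -2.13, and the piRNA pathway genes Tdrkh at -1.47 and Mael at -1.74. The summed level of the list was 779 to 971 CPM in cKO libraries and 2012 to 2836 CPM in control libraries. The list is not free of stage: Nanos3, its lowest value at -2.24, is also in the undifferentiated list described below. Sycp1 and Hormad1 are also in the list of differentiating spermatogonia and meiotic entry. In bulk tissue, fewer germ cells and less RNA per germ cell cannot be told apart.

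**Figure D2:**
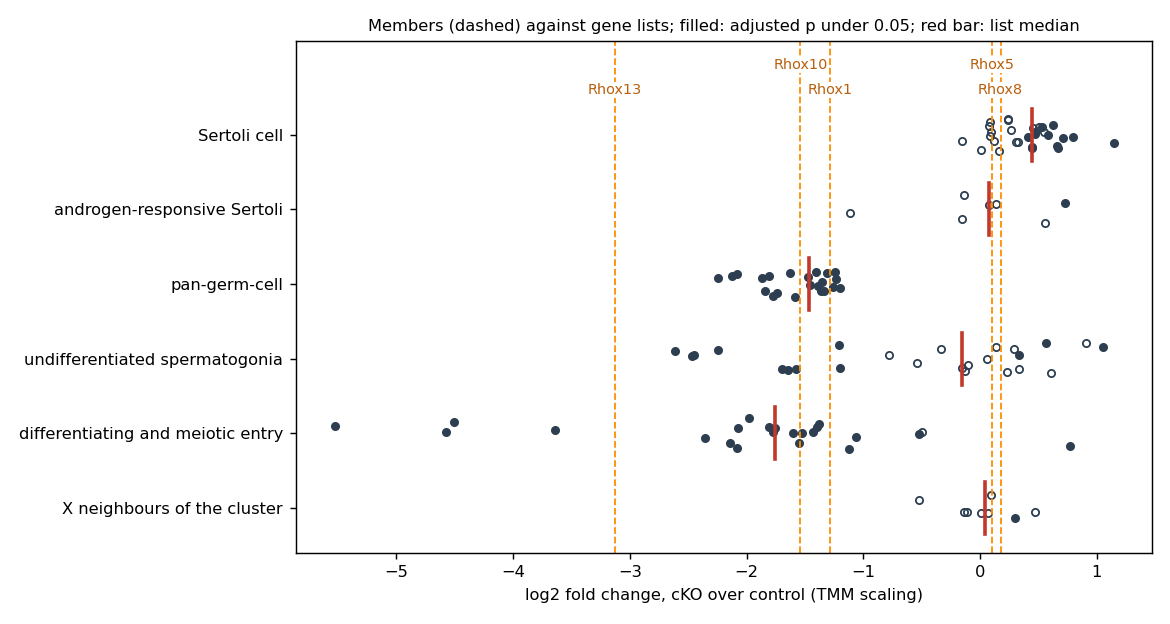
Log2 fold changes (x axis, cKO over control) of the tested genes in 6 lists, 1 row a list, with filled points for an adjusted p under 0.05, a red bar for the list's median and dashed lines for the 5 Rhox genes. Rhox10 and Rhox1 lie among the pan-germ-cell genes, whose range is -2.24 to -1.20, Rhox13 at -3.13 lies below that range, and Rhox5 and Rhox8 lie near 0.

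Measured against those germ-cell transcripts, the 3 germ-type genes parted. When libraries were scaled by the summed pan-germ-cell counts, with Rhox genes kept out of the list, the median over all tested genes was 1.54, and 93.1% of tested genes were higher and 0.527% lower in cKO libraries. On that scale Rhox13 was still lower, with a log2 fold change of -1.62 (95% interval -2.34 to -0.90) and an adjusted p of 0.000208 in edgeR's quasi-likelihood test. Rhox10 had -0.05 (95% interval -0.78 to 0.67, adjusted p of 0.885) and Rhox1 had 0.21 (adjusted p of 0.654), so neither passed. For Rhox13 the value lay between -1.96 and -1.39 when each library was left out in turn, and all 6 fits passed the threshold, with adjusted p from 4.07e-06 to 0.00365.

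The library values show the same split. Rhox13 held 18.9, 12.1 and 8.89 counts per 10000 pan-germ-cell counts in cKO libraries and 51.4, 34.8 and 36.1 in control libraries, which did not overlap. Rhox10 held 13.6, 14.3 and 23.3 per 10000 in cKO libraries and 22.02, 15.5 and 15.9 in control libraries, and these overlapped. Rhox1 held 9.06, 12.8 and 4.79 in cKO libraries and 11.3, 4.72 and 7.05 in control libraries, with full overlap. Control library 1, with the lowest pan-germ-cell sum of the controls, had the highest control value for each of these genes. In CPM, Rhox13 and Rhox10 were nearly level among the controls, so they did not follow that sum. Dazl supplied 19.9% of the counts in the list, so the scale leans on that gene more than on others.

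The Sertoli-type genes were set against Sertoli transcripts in the same way. Rhox8 held 88.8, 93.1 and 100 counts per 10000 Sertoli counts in cKO libraries and 125, 86.0 and 108 in control libraries, and Rhox5 held 1.36, 1.56 and 0.904 in cKO libraries and 1.304, 1.998 and 1.456 in control libraries. Both overlapped between the groups. Scaled by the Sertoli list, which moved the median of all tested genes to -0.37, Rhox8 had a log2 fold change of -0.18 (adjusted p of 0.475 in edgeR's quasi-likelihood test) and Rhox5 of -0.30 (adjusted p of 0.566). Rhox13 (-3.53), Rhox10 (-1.92) and Rhox1 (-1.67) were lower and passed on this scale, with adjusted p of 0.00021, 0.00366 and 0.0088; 31.3% of all tested genes were lower there. Clu gave 28.2% and Ctsl 14.8% of the Sertoli counts.

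**Figure D3:**
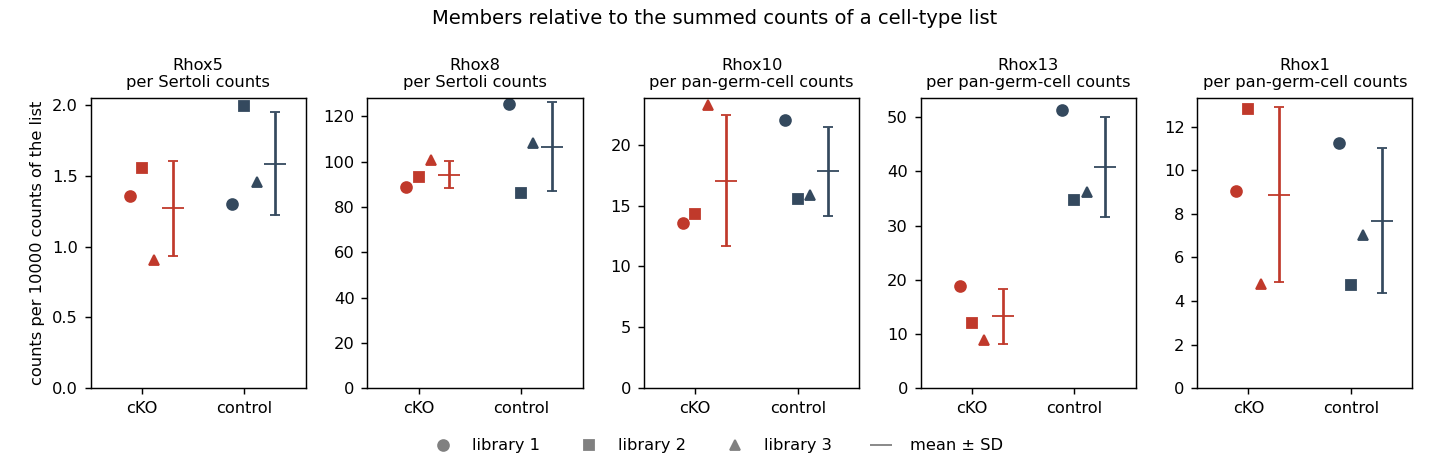
Counts of each gene per 10000 counts of its cell-type list (y axes from 0), Sertoli genes for Rhox5 and Rhox8 and pan-germ-cell genes for the other 3, in 3 cKO and 3 control libraries with mean and SD. Rhox13 separates the groups, at 8.89 to 18.9 in cKO libraries and 34.8 to 51.4 in control libraries, and the other 4 genes overlap.

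**Figure D4:**
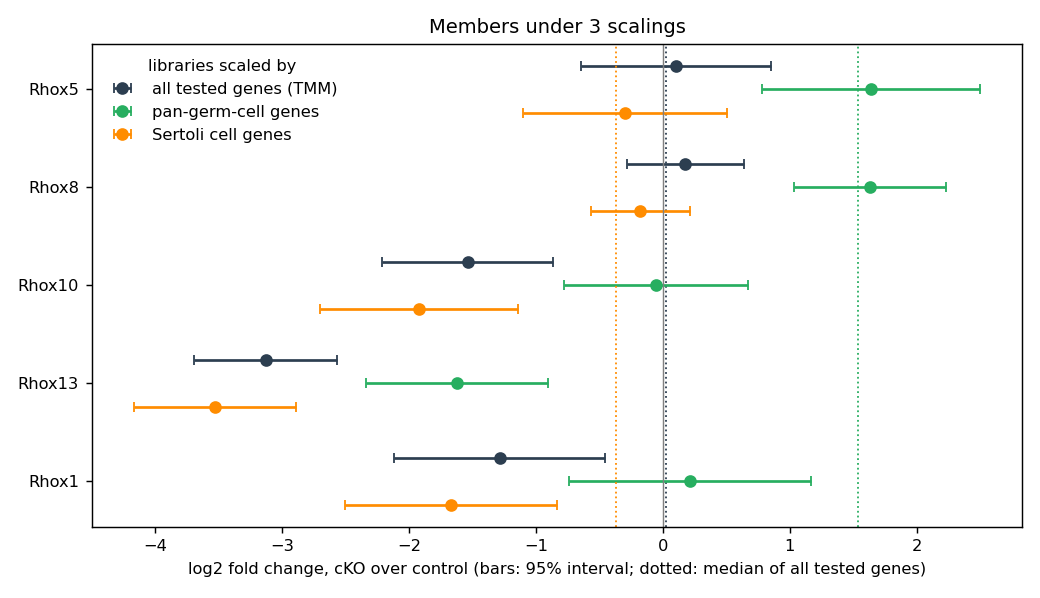
Log2 fold change (x axis, cKO over control) of the 5 genes with 95% intervals when libraries were scaled by all tested genes, by pan-germ-cell genes or by Sertoli genes, with dotted lines at the median of all tested genes under each. Rhox13 lies below 0 under all 3 scalings (-3.13, -1.62 and -3.53), and Rhox10 and Rhox1 lie near 0 when scaled by pan-germ-cell genes.

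Beyond the 5 genes, 29 Rhox genes were in the table and 2 of them passed the filter, both copies of Rhox2. Rhox2a stood at 1.04, 1.12 and 0.731 CPM in cKO libraries and 3.85, 3.29 and 3.37 CPM in control libraries, with a log2 fold change of -1.85 (SE 0.266) and an adjusted p of 0.00254 in edgeR's quasi-likelihood test. Rhox2b stood at 0.650, 0.470 and 0.266 CPM in cKO libraries and 1.69, 1.62 and 0.962 CPM in control libraries, with -1.61 (SE 0.414) and an adjusted p of 0.0226. Both fell, and neither group of libraries overlapped the other. Over all tested genes 13.9% were lower, and 22.1% were lower without overlap between the groups. When libraries were scaled by pan-germ-cell genes 0 of the 2 passed as lower, where 0.527% of all tested genes did. Of the words of 50 bases in the transcripts of these 2 copies, 91.1% in Rhox2a and 82.3% in Rhox2b also occur in other genes. Reads can therefore be split among copies, and the single values are uncertain. No such sharing was found for Rhox13, Rhox10, Rhox1 or Rhox5, and for Rhox8 it was 4.9%.

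The copies in the table were therefore also summed within each subfamily, a step chosen after the single values were seen. Not all summed copies are near-identical. Among the Rhox2 rows, the share of words of 50 bases that also occur in other genes ran from 44.7% (Rhox2d) to 100% (Rhox2e). The 8 Rhox2 rows together had 60, 50 and 46 counts in cKO libraries and 162, 153 and 121 in control libraries, with a log2 fold change of -1.30 (SE 0.192) and an adjusted p of 0.0028 in edgeR's quasi-likelihood test. The 2 Rhox7 rows summed to 1, 9 and 10 counts in cKO libraries and 25, 19 and 17 in control libraries, with -1.42 and an adjusted p of 0.0809. The Rhox4 rows summed to 12, 17 and 23 counts in cKO libraries and 48, 23 and 36 in control libraries, with -0.86 and an adjusted p of 0.121. Of these sums only that of Rhox2 passed, the Rhox4 sums overlapped between the groups, and the Rhox3 sum was too low to test. The 27 Rhox genes that failed the filter had 0 to 25 counts in any library. Their summed CPM was lower in cKO libraries for 20 and higher for 5, and 2 were at 0 throughout.

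**Figure D5:**
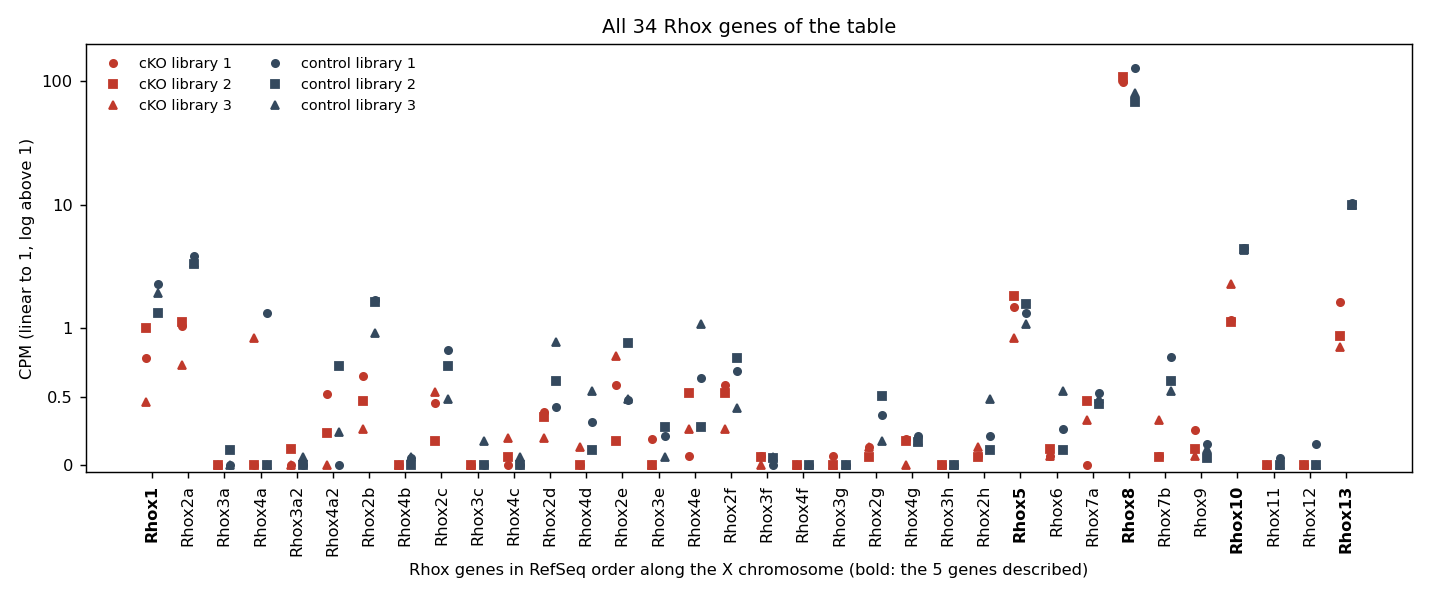
CPM (y axis, linear to 1 and log above) of all 34 Rhox genes in RefSeq order along the X chromosome, with 3 cKO libraries in red and 3 control libraries in dark. Rhox8 stands near 100 CPM in both groups, Rhox13 is the next highest in control libraries at 9.86 to 10.3 CPM, and most of the copies in the middle of the cluster lie below 1 CPM.

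With all 6 libraries, none of the genes tested on either side of the cluster passed as lower. Over all tested genes 13.9% were lower and 11.1% higher. Without control library 1, Zbtb33 (-0.33, adjusted p of 0.00795 in edgeR's quasi-likelihood test) and Cul4b (-0.26, adjusted p of 0.0392) passed as lower. In that fit 2852 of all 14424 tested genes were lower. Of the 5 nearest annotated genes on each side, 8 were tested, and their median log2 fold change was 0.04. Lamp2, a lysosomal membrane protein, was the one that passed, at 286 ± 19.1 CPM in cKO libraries and 232 ± 2.12 CPM in control libraries (SD, n = 3 each), and its log2 fold change was 0.30 with an adjusted p of 0.037 in edgeR's quasi-likelihood test. That call was lost when any 1 cKO library or control library 3 was left out, and also with upper-quartile, total-count or Sertoli scaling, with no filter and in both limma fits on FPKM. Cul4b, which encodes a scaffold of CRL4 ligases, stood at -0.11 (adjusted p of 0.571). The remaining 6 tested neighbours did not pass and had log2 fold changes of -0.52 (Gm9), -0.14 (Zbtb33), 0.01 (Ndufa1), 0.07 (Tmem255a), 0.09 (Nkap) and 0.48 (Rnf113a1). Akap14 and Atp1b4 were too low to test.

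Outside the cluster, the X-linked homeobox gene Esx1 fell and Hdx did not pass. Esx1, a homeobox gene of the germ line and placenta, was at 0.520, 0.411 and 0.199 CPM in cKO libraries and 13.0, 19.2 and 21.5 CPM in control libraries, 46.2-fold lower with an adjusted p of 0.000104 in edgeR's quasi-likelihood test. Its log2 fold change of -5.53 was larger in size than that of Rhox13. Hdx, another X-linked homeobox gene, had 0.22 (adjusted p of 0.544).

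Genes of later spermatogonia were mostly lower, and those of undifferentiated spermatogonia were mixed. Of 23 tested genes of differentiating spermatogonia and meiotic entry, 21 were lower and 1 higher, with a median log2 fold change of -1.75. For comparison, 13.9% of all tested genes were lower and 11.1% higher. Dmrtb1, a regulator of the switch from mitosis to meiosis, averaged 2.06 ± 0.612 CPM in cKO libraries and 47.0 ± 5.21 CPM in control libraries (SD, n = 3 each), and its log2 fold change was -4.51. Prss50, a testis protease, had -4.57, the synaptonemal complex gene Sycp3 -2.15 and the RNA helicase gene Ddx25 -1.98, and Esx1 also belongs to this list. The gene that was higher, named after its value was seen, was the cyclin gene Ccnd2, at 0.77.

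Of 25 tested genes of undifferentiated spermatogonia, 9 were lower, 3 were higher and 13 did not pass, with a median of -0.15. Over all tested genes 13.9% were lower and 11.1% higher. The transcription factor gene Sox3, which marks progenitors, fell to 6.19 ± 0.684 CPM in cKO libraries, against 33.8 ± 3.52 CPM in control libraries (SD, n = 3 each). Log2 fold changes were -1.70 for Lin28a, an RNA-binding protein of progenitors, -2.24 for Nanos3, -2.62 for Upp1 and -1.58 for Egr4. The 3 that were higher, named after their values were seen, were Lhx1 (1.05), Shisa6 (0.57) and Etv5 (0.33). With cKO library 1 or 2 left out none of the list was higher. In those fits 477 and 450 of all 14424 tested genes were higher, against 1599 with all 6 libraries. Scaled by pan-germ-cell genes, 3 genes of this list were lower and 16 higher, and 8 of the differentiating list were lower and 3 higher. On that scale 93.1% of all tested genes were higher and 0.527% lower. With libraries scaled over all genes, the lowest value in the undifferentiated list was -2.62, above the -3.13 of Rhox13. In the differentiating list Esx1 (-5.53), Prss50 (-4.57) and Dmrtb1 (-4.51) lay below Rhox13.

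Sertoli genes other than Rhox8 and Rhox5 were in part higher in cKO libraries. Of 29 tested, 13 were higher and 0 lower, where 11.1% of all tested genes were higher and 13.9% lower. Their median log2 fold change was 0.44. Kitl, the ligand for the KIT receptor on germ cells, averaged 628 ± 33.9 CPM in cKO libraries and 396 ± 44.3 CPM in control libraries (SD, n = 3 each), and its log2 fold change was 0.67. Values were 1.14 for the steroid enzyme gene Hsd17b1, 0.62 for the inhibin subunit gene Inhbb, 0.47 for the FSH receptor gene Fshr and 0.45 for Gata4. With Sertoli scaling 1 was higher and 1 lower, where 0.215% of all tested genes were higher and 31.3% lower. That scale is the summed counts of this same list, which puts its median at 0.05. The loss of higher calls there follows from the scale and is not a separate result. The count of higher genes with all-gene scaling was not stable when each library was left out. It lay between 2 (without cKO library 2) and 21 (without control library 1). It was 4 and 7 without cKO libraries 1 and 3, and 6 without control library 3. Over all 14424 tested genes, 450 were higher without cKO library 2 and 2395 without control library 1.

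Genes known to respond to androgen in Sertoli cells, as Rhox5 and Rhox8 do, had 1 of 7 higher, 0 lower and a median log2 fold change of 0.07. That share is close to the 11.1% of all tested genes that were higher. With pan-germ-cell scaling 6 of the 7 were higher, where 93.1% of all tested genes were, and with Sertoli scaling 0 were, where 0.215% of all tested genes were. Serpina5, a protease inhibitor gene, averaged 267 ± 36.8 CPM in cKO libraries and 161 ± 32.0 CPM in control libraries (SD, n = 3 each), and its log2 fold change was 0.73 with an adjusted p of 0.0119 in edgeR's quasi-likelihood test, and it no longer passed without cKO library 1, cKO library 2 or control library 3, or with Sertoli scaling. The other members did not pass, at -1.11 (Cldn3), -0.15 (B4galnt1), -0.13 (Eppin), 0.07 (Tsx), 0.14 (Tubb3) and 0.56 (Drd4).

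Of 2 genes reported in mouse as acting downstream of RHOX5, 1 rose and 1 fell, while Rhox5 itself did not pass. Among all tested genes 11.1% were higher and 13.9% lower. Unc5c, a netrin receptor gene, stood at 2.47, 2.76 and 3.32 CPM in cKO libraries and 1.002, 1.28 and 1.14 CPM in control libraries, with a log2 fold change of 1.31 (SE 0.263) and an adjusted p of 0.00873 in edgeR's quasi-likelihood test. The call was lost with Sertoli scaling (0.92, adjusted p of 0.0587) and in both limma fits on the deposited FPKM. Ins2, an insulin gene, was counted 12, 19 and 20 times in cKO libraries and 786, 1019 and 15 times in control libraries, with -4.94 (SE 1.15) and an adjusted p of 0.0157. Control library 3 lay within the range of the cKO libraries, so the Ins2 value rests on 2 control libraries, and it did not pass when any 1 cKO library was left out, in limma-voom (adjusted p of 0.286) or in either limma fit on FPKM.

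DNA methylation is known to hold Rhox genes off in many tissues. A list of 14 genes that add or remove it or modify chromatin had 5 lower, 2 higher and a median of -0.15. The shares over all tested genes were 13.9% lower and 11.1% higher. Ehmt2, a histone H3 lysine methyltransferase, had a log2 fold change of -0.58, the DNA methyltransferase gene Dnmt3b -1.14 and the chromatin remodeller gene Hells -0.84. Leaving out 1 library gave 3 to 6 lower and 0 to 3 higher. In the same fits 921 to 2852 of all 14424 tested genes were lower and 450 to 2395 higher. With scaling by pan-germ-cell genes 0 of the list were lower and 13 higher, where 93.1% of all tested genes were higher. The 2 that were higher, Tet1 (0.82) and Tet2 (0.78), encode enzymes that remove DNA methylation and were named after their values were seen.

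Some markers of Leydig, myoid, macrophage and endothelial cells were higher, most did not pass, and their part in the Rhox results was not tested. Higher genes numbered 3 of 10 in the Leydig list (10 without control library 1), 3 of 10 in the peritubular myoid list, 2 of 10 in the macrophage list, 5 of 10 in the endothelial list and 0 of 5 in the erythroid list, where 11.1% of all tested genes were higher, and 0 were lower in each. With 1 library left out the endothelial count ran from 0 (without cKO library 1) to 6, with 1 and 2 without cKO libraries 2 and 3 and 3 without control library 3. The macrophage count ran from 0 (without cKO library 1) to 4 (without control library 1), with 1 without cKO library 2, control library 2 or control library 3. The myoid count ran from 1 (without cKO library 1) to 5 (without control library 2). Calls moved over all 14424 tested genes too. Higher genes there ran from 450 (without cKO library 2) to 2395 (without control library 1), against 1599 with all 6 libraries. They numbered 477 without cKO library 1 and 2011 without control library 2. With Sertoli scaling 1 Leydig gene was higher and 0 of the myoid, macrophage and endothelial lists were, where 0.215% of all tested genes were. Median log2 fold changes were 0.68 for Leydig, 0.26 for myoid, 0.41 for macrophage, 0.39 for endothelial and -0.21 for erythroid genes. Summed levels of the Leydig list were 1788 to 1861 CPM in cKO libraries and 1043 to 1799 CPM in control libraries, and the highest control was library 1, the same library in which Rhox8 was highest. No defining marker of these lists was at 0 in all libraries.

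Genes whose library pattern was most like that of each Rhox gene were ranked by the root mean square (RMS) difference of centred log2 CPM over the 6 libraries, among tested genes whose mean log2 CPM was 1 or more. Nearest to Rhox13 were the homeobox genes Pou4f1 and Dlx1, at 0.289 and 0.388, and the potassium channel gene Kcnj4, at 0.39. Rhox10 was nearest to Tmem169, Cilp2 and Smagp, at 0.157 to 0.184, and Rhox1 to Enho, Avpi1 and Myl4, at 0.178 to 0.188. Rhox8 was nearest to Car11, Pcolce and Chrnb1, at 0.0276 to 0.0537, and Rhox5 to Ntn4, Klf9 and Nags, at 0.108 to 0.113. The smallest differences belong to genes with little change between libraries and the largest to the gene that changed most, so these values are not comparable between Rhox genes.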

How the data were processed

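Per the labels' protocols, libraries of messenger RNA were made from column-purified total RNA of testes. In the 1 table that the authors deposited, each gene has an estimated count and an FPKM value in each library. StringTie 1.3.1 and RSEM are named by the submitters' processing notes, without their roles. Aligner, build, annotation and use of strand: not given in the sources used here. The deposited estimated counts are whole numbers and were taken as rounded by the authors, and the deposited FPKM values are scaled to length and library size. FPKM served to order levels between genes and in 2 alternative fits.

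Rows were matched by Ensembl identifier, and 22219 of 22274 had a reference symbol. Genes were kept by filterByExpr (minimum count of 10), leaving out 0.063% of counts, and TMM factors (trimmed mean of M values) scaled the libraries. Groups were compared with edgeR 4.0.16 (glmQLFit and glmQLFTest, no covariates, R 4.3.3), adjusting p-values by Benjamini-Hochberg at 0.05. SE is the size of the log2 fold change over the square root of F. Log2 fold changes are cKO over control. The fit was tested on simulated data, with a bar for recovery that was lowered after its outcome was seen, because genes of low counts were missed.

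Named genes were the 5 members, other tested Rhox genes, the tested members of each list with the smallest p (3, or 5 for the 4 Sertoli and germ-cell lists), all of short lists and the neighbours, the 3 nearest patterns per member, and Dtl. For the lists of other somatic cells only counts are given. Predicted genes were passed over, except in the neighbours, and a gene that these rules take is not reported here. Members and lists were chosen with earlier results of these data known. Alternatives were the tools DESeq2 1.42.0 and limma-voom (limma 3.58.1), scaling by RLE, upper quartile, total count, pan-germ-cell genes or Sertoli genes, no filter or a stricter one (CPM of at least 1 in 3 libraries), a block for replicate number, leaving out each library, and limma on log2(FPKM + 0.1) and log2(FPKM + 1). Summing the copies within each subfamily, and leaving out libraries within the pan-germ-cell scaling, were chosen after seeing the data.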

Additional observations from a re-analysis of the deposited data

How the results depend on the processing

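Rhox13 stayed lower and past the threshold in 18 of 18 alternatives, and Rhox10 in 17 of 18. Scaling by pan-germ-cell genes moved the log2 fold changes of Rhox1 to 0.21 (reversed) and Rhox10 to -0.052 (no longer past). It moved Rhox5 to 1.64 and Rhox8 to 1.63 (both now past). The median over all tested genes was 1.54 on that scale, and 93.1% of them were higher. Sertoli scaling, with a median of -0.37, reversed Rhox5 (-0.30) and Rhox8 (-0.18). With 1 library left out, ranges were -1.55 to -1.04 for Rhox1, -0.12 to 0.33 for Rhox5, -0.010 to 0.46 for Rhox8, -1.93 to -1.35 for Rhox10 and -3.46 to -2.97 for Rhox13. Relative to pan-germ-cell genes, Rhox1 ran from -0.15 to 0.58 and Rhox10 from -0.35 to 0.13. The count of 3607 changed genes was 13500 with pan-germ-cell scaling and 1371 (without cKO library 2) to 5247 (without control library 1) with 1 library left out. The 2 lower other Rhox genes became 0 with pan-germ-cell scaling and 1 without cKO library 2 or 3. Of 336 counts of changed list members, 80 moved by over 1.5 times, 41 with a library left out and 29 with cell-type scaling. The cause was not tested.

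The replicate numbers did not pair the libraries (correlations of -0.07, -0.08 and 0.07). With the replicate number as a block, 2822 genes changed and Rhox1, at -1.28, no longer passed, with an adjusted p of 0.0595 in edgeR's test; the Lamp2 call was also lost (adjusted p of 0.0859).

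Among other named genes, pan-germ-cell scaling reversed Dtl (1.23), Cldn3 (0.44), Eppin (1.38), B4galnt1 (1.43), Gm9 (0.98), Zbtb33 (1.41), Cul4b (1.43), Tdrkh (0.052), Ehmt2 (0.94), Dnmt3b (0.42) and Hells (0.69). On that scale the median over all tested genes was 1.54. Sertoli scaling, with a median of -0.37, reversed Tubb3 (-0.23), Tsx (-0.35), Hdx (-0.20), Lamp2 (-0.10), Nkap (-0.31), Tmem255a (-0.34) and Ndufa1 (-0.36). Tsx was also reversed in limma-voom (-0.10), the block (-0.013), and limma on log2(FPKM + 0.1) (-0.17) and log2(FPKM + 1) (-0.051). Ndufa1 was reversed in DESeq2 (-0.0049), RLE (-0.0050), upper-quartile (-0.021) and total-count scaling (-0.058) and the FPKM fits (-0.062 and -0.059). With 1 library left out, ranges were -0.44 to 0.27 for B4galnt1, -0.26 to 0.017 for Cul4b, -0.31 to 0.12 for Eppin, -0.012 to 0.46 for Hdx, -0.15 to 0.18 for Ndufa1, -0.046 to 0.21 for Tmem255a, -0.56 to 0.42 for Tsx and -0.056 to 0.32 for Tubb3.

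A single count was worth a few hundredths of a CPM, so Rhox1, Rhox5, Rhox10 and Rhox13 rest on 7 to 34 counts per library in cKO testes, and the estimated counts do not show how reads shared among copies were split.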

Other observations

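The near-identical copies Rhox4a and Rhox4a2 took turns across libraries. Rhox4a was counted 0, 0 and 14 times in cKO libraries and 25, 0 and 0 times in control libraries, whereas Rhox4a2 was counted 8, 4 and 0 times in cKO libraries and 0, 13 and 4 times in control libraries. No library had counts for both, and 98.2% of the words of 50 bases in Rhox4a2 also occur in other genes.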
